A study of Mus musculus with 16 samples.

Results

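The genes described here are 10 components of Notch signalling, namely the receptors Notch1, Notch2, Notch3 and Notch4, the ligands Jag1 and Jag2, and the target genes Hes1, Hey1, Hey2 and Heyl. They were found by name, through the gene name printed for a probe or the current symbol of its accession, on single-colour Agilent whole mouse genome arrays. Of the 41174 probes, 15 belonged to these genes, and all 15 were well above background on all 16 arrays. Each of the 10 genes was therefore among the 24373 features tested, and the filter on dim probes removed none of them. Total RNA came from whole ovaries of mice aged 1 year, with 4 arrays in each of 4 groups, in a study of how ERα and ERβ bear on granulosa cell transdifferentiation in aged ovaries. The groups were Ex3abERKO, in which both estrogen receptors (ER) were knocked out, Ex3aERKO, the ERα knockout, Ex3bERKO, the ERβ knockout, and a control that carried only a single allele of each receptor. The labels give no strain and no Cre driver, and name no deleted exon beyond the unexplained prefix Ex3 of the knockout names. They also do not say how many alleles of the other receptor the single knockouts carried. Nothing in them ties the 4 samples of a group to 4 animals, and p-values therefore cover the spread between samples that may be technical repeats.

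Notch receptors are membrane proteins that are cut after they bind a Jagged or Delta ligand on a neighbouring cell, and the freed intracellular part enters the nucleus and joins the DNA-binding protein RBPJ on target genes. The Hes and Hey genes are the best known targets, and their products are basic helix-loop-helix repressors of transcription. In the mouse ovary, Jagged ligands of the oocyte signal to Notch2 in the surrounding granulosa cells during follicle formation, while Notch4, Dll4 and Hey genes are used by blood vessel endothelium and Notch3 and Heyl by the muscle cells around vessels. Sertoli cells are the supporting cells of the testis, the counterpart of granulosa cells.

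A level is given as the log2 of the processed signal divided by the 75th percentile of its array, so that 0 is the 75th percentile, and levels of different probes are not set against each other. The 75th percentile of the processed signal before this scaling was 1211 to 1806 per array, and 80.4% to 87.6% of spots were well above background. Over all kept probes, arrays of a group correlated at 0.954 to 0.978 in Ex3abERKO, 0.955 to 0.983 in Ex3aERKO ovaries, 0.965 to 0.979 in Ex3bERKO ovaries and 0.974 to 0.985 in control. The probe for Esr1, which encodes ERα, fell in Ex3abERKO and Ex3aERKO against control, by 1.63 and 2.38 on the log2 scale (limma, adjusted p = 0.006512 and 0.001736). The probe for Esr2, which encodes ERβ, was lower in Ex3abERKO by -1.97 (adjusted p = 0.01313) but did not pass the test in Ex3bERKO (0.43, adjusted p = 0.9129). Since the removed part of each gene is not given beyond the prefix Ex3, neither probe checks the labels. The arrays lay on 4 slides: slides 1 and 4 held every group, slide 2 held no Ex3bERKO array and slide 3 no Ex3abERKO array. Among the arrays, 3 stood highest in the summed linear level of liver, surface epithelium and oviduct, or erythroid marker genes, each in a different list. Ex3aERKO 2 had 157 for 6 liver genes, where the other 15 arrays had 2.89 to 24.98. Ex3abERKO 2 had 106 for 9 genes of surface epithelium and oviduct, where the others had 15.04 to 83.4. Control 4 had 133 for 5 erythroid genes, where the other control arrays had 9.70 to 15.2 and the knockout arrays 12.4 to 99.4. Calls of the 10 genes that were lost without these 3 arrays are given with and without them. So are counts against control of marker and pathway genes that changed.

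Loss of both receptors was accompanied by changes in most of these genes, loss of ERα in some, and loss of ERβ alone in none that passed the test. In Ex3abERKO against control, 6 of the 10 genes were called at an adjusted p under 0.05, 2 higher and 4 lower, where 22.3% of all features were called in either direction, 10.6% higher and 11.7% lower. Notch1 and Notch2 rose, and Notch4, Jag2, Hey2 and Heyl fell. In Ex3aERKO against control, 3 of the 10 were called, all lower (Notch3, Jag2 and Heyl), where 8.05% of all features were called, 3.84% higher and 4.2% lower. In Ex3bERKO against control, 0 of the 10 were called by limma, where 1.03% of all features were called, 0.39% higher and 0.636% lower, and Notch3 and Notch4 had an unadjusted p under 0.05. The median difference over the 10 genes was -0.67 in Ex3abERKO, -0.51 in Ex3aERKO and -0.13 in Ex3bERKO, beside -0.11, -0.08 and 0.01 over all features. The 3 comparisons share the control arrays.

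**Figure D1:**
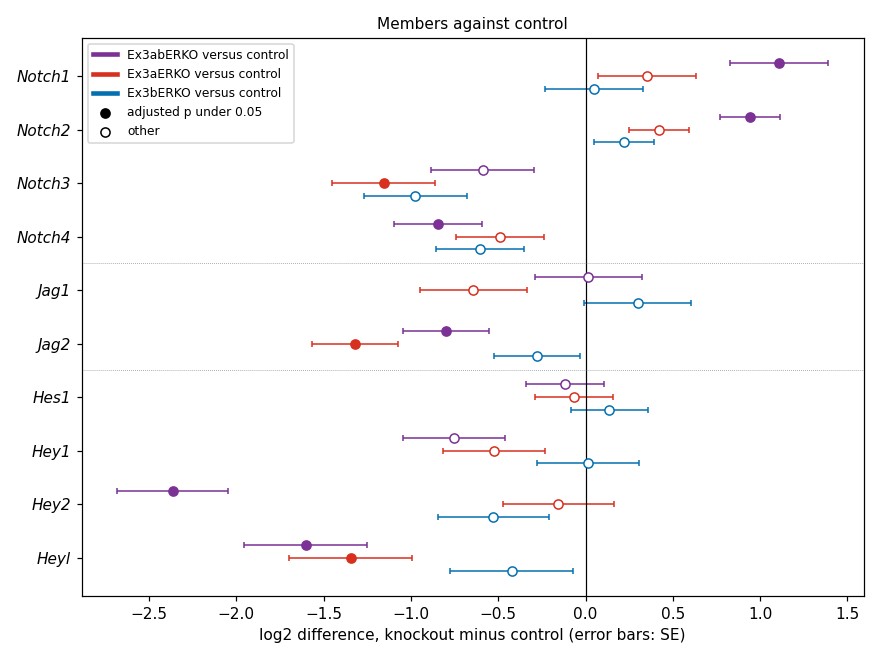
Log2 difference of each gene from control (x axis), for Ex3abERKO (purple), Ex3aERKO (red) and Ex3bERKO (blue), with standard errors of the limma model as bars. Filled points have an adjusted p under 0.05; dotted lines part receptors, ligands and targets. Hey2 in Ex3abERKO lies farthest from 0, at -2.36, and all Ex3bERKO points are open.

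Notch1, a receptor best known from blood vessels and lymphocyte development, was highest in the double knockout. Its levels were -1.32, -0.87, -1.84 and -0.72 on the 4 Ex3abERKO arrays, -2.02, -1.57, -1.65 and -2.54 on the Ex3aERKO arrays, -2.06, -1.84, -2.52 and -2.57 on the Ex3bERKO arrays, and -2.29, -2.25, -2.70 and -1.93 in control, in the order of the replicate numbers. Every Ex3abERKO array lay above every control array, and the Ex3aERKO and Ex3bERKO ranges overlapped that of control. The difference from control was 1.11 ± 0.28 (SE, n = 4 per group), which is 2.15-fold (limma, adjusted p = 0.01125), in Ex3abERKO, 0.35 ± 0.28 in Ex3aERKO (adjusted p = 0.5709) and 0.05 ± 0.28 in Ex3bERKO (adjusted p = 0.9945). Within slides 1, 2 and 4 the Ex3abERKO difference was 0.46, 0.83 and 1.98. The order of the group means was Ex3abERKO, Ex3aERKO, Ex3bERKO, control, and the last 3 did not differ beyond their spread. With normexp background correction the Ex3abERKO difference was 0.69 and not called (adjusted p = 0.1781), while the median of all features was then -0.36.

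Notch2, the receptor of granulosa cells, followed the same order of groups with a tighter spread. Its levels were 1.87, 2.20, 2.02 and 1.90 on the Ex3abERKO arrays, 1.50, 1.76, 1.64 and 0.99 on the Ex3aERKO arrays, 1.36, 1.15, 1.33 and 1.26 on the Ex3bERKO arrays, and 0.77, 1.13, 1.03 and 1.29 in control. The lowest Ex3abERKO array was above the highest array of each of the other groups. Notch2 rose by 0.94 ± 0.17 in Ex3abERKO against control, which is 1.92-fold (adjusted p = 0.001515), and by between 0.75 and 1.25 within slides 1, 2 and 4. In Ex3aERKO it was 0.42 ± 0.17 above control (adjusted p = 0.1668) and in Ex3bERKO 0.22 ± 0.17 (adjusted p = 0.8073), and neither passed the test. Without Ex3aERKO 4, the lowest of its group, the Ex3aERKO difference was 0.58 and called (adjusted p = 0.02797). When all 3 Notch2 probes were averaged, the Ex3abERKO difference was 0.39 and not called (adjusted p = 0.1137).

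The other Notch2 probes were read on their own. A second probe rose by 0.66 ± 0.16 in Ex3abERKO against control (limma, adjusted p over all probes = 0.009948). The third stood at -0.43 ± 0.36 (adjusted p = 0.443), in the opposite direction, so the probes of this gene disagree. In the coordinates of the array files (mm7, counted from 1) the probe that represents Notch2 lay at chr3:98021215-98021274, the second at chr3:98020144-98020203 and the third at chr3:98018506-98018565, all on the plus strand. Both Notch1 probes gave the same calls against control: the second, at chr2:26466621-26466680 beside the representing probe at chr2:26466563-26466621, rose by 0.94 ± 0.26 in Ex3abERKO (adjusted p = 0.01731). The representing Notch1 probe was printed 10 times per array, and its spots had an SD of 0.05 to 0.18 on the log2 scale, below the SD of 0.32 to 0.50 between arrays of a group.

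Notch3, a receptor of vascular smooth muscle, was lower in every knockout mean than in control. Its levels were 0.14, 0.43, -0.25 and -0.11 on the Ex3abERKO arrays, -0.83, -0.47, -0.50 and -0.27 on the Ex3aERKO arrays, -0.95, -0.31, -0.53 and 0.46 on the Ex3bERKO arrays, and 1.14, 0.04, 0.43 and 0.95 in control. No Ex3aERKO array reached the lowest control array, while the other knockouts overlapped control. Notch3 fell by 1.16 ± 0.29 in Ex3aERKO, to a level 2.23-fold lower (adjusted p = 0.02551), and by 0.70 to 1.60 within the 4 slides. The Ex3abERKO difference was -0.59 ± 0.29 (adjusted p = 0.176) and the Ex3bERKO difference -0.97 ± 0.29 (adjusted p = 0.1722). Single arrays decided the calls of Notch3. The Ex3aERKO call was lost without control 1 (-0.99, adjusted p = 0.08349), control 4 (-1.05, 0.07885), Ex3aERKO 1 (-1.05, 0.0716), Ex3aERKO 2 (-1.17, 0.06095) or Ex3aERKO 3 (-1.16, 0.06309), and without Ex3aERKO 2, Ex3abERKO 2 and control 4 together (-1.07, 0.1671). Without Ex3bERKO 4, the highest of its group, the Ex3bERKO difference was -1.24 and called (adjusted p = 0.04576).

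Notch4, an endothelial receptor, was also lower in each knockout mean. Its levels were -0.39, -0.62, -1.70 and -0.86 on the Ex3abERKO arrays, -0.65, -0.67, -0.60 and -0.23 on the Ex3aERKO arrays, -0.95, -0.64, -0.76 and -0.25 on the Ex3bERKO arrays, and 0.30, -0.28, -0.08 and -0.13 in control. Every Ex3abERKO array was below every control array, and in each single knockout 3 of 4 arrays were. Notch4 fell by 0.85 ± 0.25 in Ex3abERKO, to a level 1.80-fold lower (adjusted p = 0.02592), with -2.00, -0.37 and -0.78 within slides 1, 2 and 4. The differences of -0.49 ± 0.25 in Ex3aERKO (adjusted p = 0.2948) and -0.60 ± 0.25 in Ex3bERKO (adjusted p = 0.4127) did not pass the test. The 3 knockout means did not differ from each other beyond their spread (adjusted p of 0.4615 or more). The Ex3abERKO call was lost without control 1 (-0.73, adjusted p = 0.0802) or control 3 (-0.86, 0.0563), and without Ex3aERKO 2, Ex3abERKO 2 and control 4 together (-0.96, 0.06587). It was also lost with normexp (-0.72, 0.05788), and with only the groups compared in the model (-0.85, 0.08483).

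**Figure D2:**
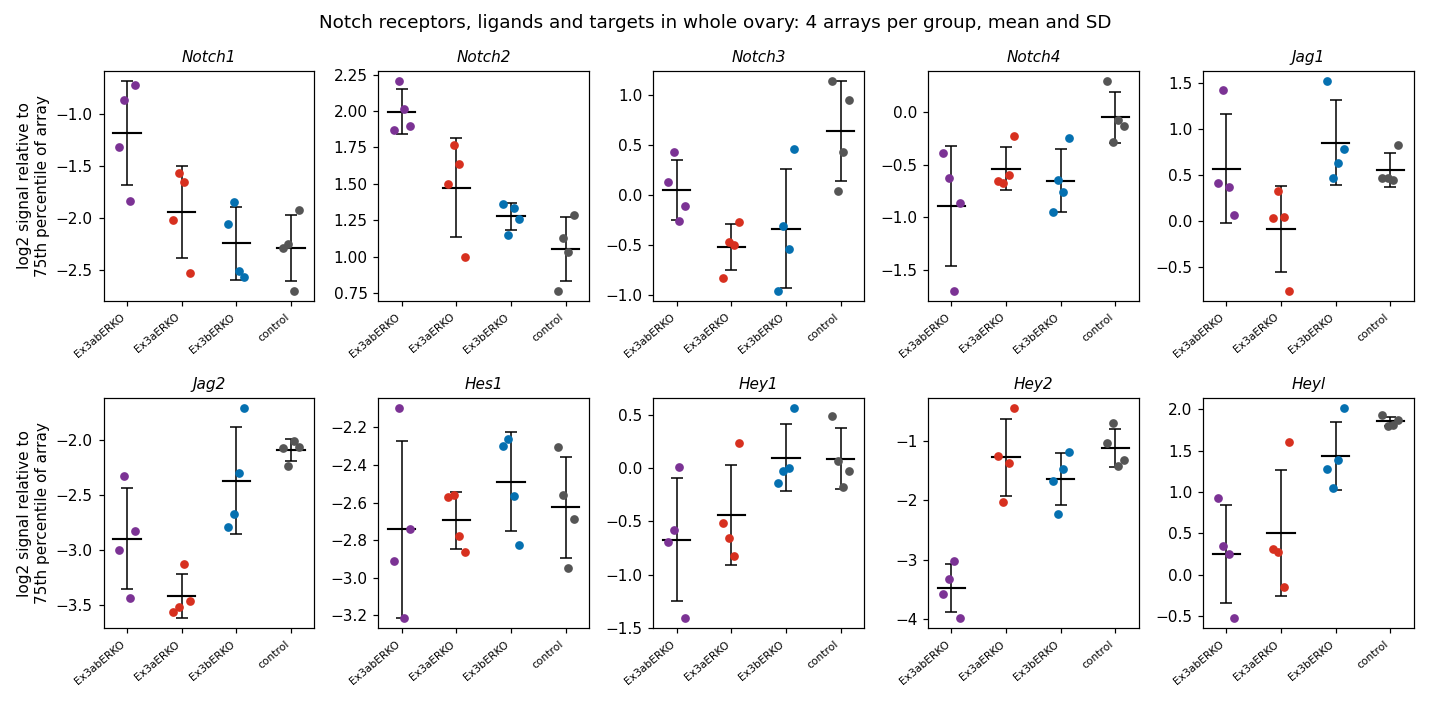
Level of each gene on each array (y axis, log2 of the signal relative to the array's 75th percentile; scales differ between panels), with the group mean and SD of 4 arrays. Groups run from Ex3abERKO through Ex3aERKO and Ex3bERKO to control. The Hey2 panel shows all 4 Ex3abERKO arrays at -3.02 or lower, apart from the 12 others, and the Hes1 panel shows 4 overlapping groups.

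Of the ligands, Jag1 did not pass the test in any comparison and Jag2 fell where ERα was lost. Jag1, the Jagged ligand of germ cells in the ovary, had levels of 0.41, 1.43, 0.36 and 0.06 on the Ex3abERKO arrays, 0.03, 0.33, 0.04 and -0.76 on the Ex3aERKO arrays, 1.52, 0.47, 0.63 and 0.78 on the Ex3bERKO arrays, and 0.47, 0.47, 0.44 and 0.82 in control. The Ex3aERKO arrays lay below all control arrays, and the difference of -0.64 ± 0.31 (adjusted p = 0.2515) did not pass the test. The Ex3abERKO difference was 0.02, with a 95% interval from -0.64 to 0.67, and the Ex3bERKO difference was 0.30, with an interval from -0.36 to 0.96. The second Jag1 probe was near the lowest level that counted as well above background, at a mean of -5.91, and was not called in any comparison.

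Jag2, the other Jagged ligand measured here, was lowest in Ex3aERKO. Its levels were -3.00, -2.32, -3.43 and -2.82 on the Ex3abERKO arrays, -3.57, -3.51, -3.13 and -3.47 on the Ex3aERKO arrays, -2.79, -2.67, -2.30 and -1.71 on the Ex3bERKO arrays, and -2.08, -2.24, -2.01 and -2.06 in control. All 8 arrays without ERα were below all 4 control arrays, and the Ex3bERKO arrays spanned the control range. Jag2 fell by 1.32 ± 0.25 in Ex3aERKO, to a level 2.50-fold lower (adjusted p = 0.0045), and by 1.07 to 1.46 within each of the 4 slides. It fell by 0.80 ± 0.25 in Ex3abERKO, to a level 1.74-fold lower (adjusted p = 0.03044). The Ex3bERKO difference was -0.28 ± 0.25 (adjusted p = 0.847). The Ex3aERKO call held under all 30 alternatives tried, from the slide as a block to each array left out. The Ex3abERKO call was lost without control 1, 3 or 4, and without Ex3abERKO 1, 3 or 4, with adjusted p-values of 0.06515, 0.07631, 0.06192, 0.06233, 0.07225 and 0.05134 in that order. It was also lost with array weights (-0.56, adjusted p = 0.0588) and with only the groups compared (-0.80, 0.05157). In the array files' build its probe lay on a fragment of chromosome 12 without a settled place.

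Among the targets, Hes1 did not pass the test in any comparison, Hey2 and Heyl fell in the double knockout, and Heyl also fell in Ex3aERKO. Hes1, a repressor used by Notch in many tissues, had levels of -2.91, -2.10, -3.21 and -2.74 on the Ex3abERKO arrays, -2.57, -2.56, -2.78 and -2.86 on the Ex3aERKO arrays, -2.30, -2.26, -2.57 and -2.83 on the Ex3bERKO arrays, and -2.30, -2.56, -2.95 and -2.69 in control. All groups overlapped. The Ex3abERKO difference from control was -0.12, with a 95% interval from -0.59 to 0.36, the Ex3aERKO difference -0.07, from -0.54 to 0.41, and the Ex3bERKO difference 0.14, from -0.34 to 0.61. Its probe was placed at chr16:29738743-29739038 in mm7 on the plus strand, a longer stretch than those of the other probes. What lies within that stretch was not looked up.

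Hey1, a repressor of arterial endothelium and other tissues, had levels of -0.70, -0.58, 0.01 and -1.40 on the Ex3abERKO arrays, -0.52, -0.66, -0.83 and 0.24 on the Ex3aERKO arrays, -0.14, -0.03, 0.00 and 0.56 on the Ex3bERKO arrays, and 0.48, 0.07, -0.18 and -0.03 in control. In Ex3abERKO and in Ex3aERKO, 3 of 4 arrays were below all control arrays and 1 was inside the control range. The Ex3abERKO difference of -0.75 ± 0.29 did not pass the test (adjusted p = 0.07958), nor did the Ex3aERKO difference of -0.53 ± 0.29 (adjusted p = 0.3441). The Ex3bERKO difference was 0.01 ± 0.29 (adjusted p = 0.9981). Hey1 was called in Ex3abERKO without Ex3abERKO 3, the highest of its group (-0.98, adjusted p = 0.02143), and with array weights (-0.80, 0.01709).

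Hey2, a repressor of arterial endothelium and heart, showed the largest difference of the 10 genes. Its levels were -3.59, -3.33, -3.02 and -3.98 on the Ex3abERKO arrays, -1.25, -2.03, -1.37 and -0.45 on the Ex3aERKO arrays, -1.68, -2.23, -1.48 and -1.19 on the Ex3bERKO arrays, and -1.03, -0.69, -1.43 and -1.32 in control. The highest Ex3abERKO array was below the lowest array of every other group, and the remaining groups overlapped each other. Hey2 fell by 2.36 ± 0.32 in Ex3abERKO against control, to a level 5.15-fold lower (adjusted p = 0.0002203), with -1.99, -2.14 and -2.56 within slides 1, 2 and 4. In Ex3aERKO the difference was -0.16 ± 0.32 (adjusted p = 0.8671) and in Ex3bERKO -0.53 ± 0.32 (adjusted p = 0.6825). The Ex3abERKO call held under all 30 alternatives tried.

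Heyl, a target prominent in vascular smooth muscle, had levels of 0.93, 0.34, 0.25 and -0.52 on the Ex3abERKO arrays, 0.31, 0.27, -0.16 and 1.60 on the Ex3aERKO arrays, 1.28, 1.04, 1.39 and 2.01 on the Ex3bERKO arrays, and 1.93, 1.80, 1.81 and 1.87 in control. The control arrays lay within a narrow band, and all arrays of Ex3abERKO and Ex3aERKO were below it, Ex3aERKO 4 by the least. Heyl fell by 1.60 ± 0.35 in Ex3abERKO, to a level 3.04-fold lower (adjusted p = 0.005003), with -1.67, -1.24 and -2.33 within slides 1, 2 and 4. It fell by 1.35 ± 0.35 in Ex3aERKO, to a level 2.54-fold lower (adjusted p = 0.02949), with -1.66, -2.03, -1.49 and -0.20 within slides 1 to 4. The Ex3bERKO difference was -0.42 ± 0.35 (adjusted p = 0.8284). The Ex3abERKO call held under all 30 alternatives. The Ex3aERKO call was lost when any 1 of control 1, 2, 3 and 4 or of Ex3aERKO 1, 2 and 3 was left out, with adjusted p-values of 0.07173, 0.05512, 0.06972, 0.06847, 0.0722, 0.08938 and 0.1027 in that order, at differences of -1.36 to -1.12. It was also lost without Ex3aERKO 2, Ex3abERKO 2 and control 4 together (-1.26, 0.2012). Normexp (-1.21, adjusted p = 0.06589), the mean of both Heyl probes (-1.15, 0.06691) and only the groups compared (-1.35, 0.05468) ended it as well. A second Heyl probe, at chr4:122692891-122692950 in mm7 beside the representing probe at chr4:122694378-122694437, was called in Ex3abERKO (-1.68 ± 0.39, adjusted p = 0.00721) but not in Ex3aERKO (-0.95 ± 0.39, adjusted p = 0.1771).

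The order of the group means differed between the genes. Control was highest for Notch3, Notch4, Jag2, Hey2 and Heyl, Ex3bERKO for Jag1, Hes1 and Hey1, and Ex3abERKO for Notch1 and Notch2. Ex3abERKO was lowest for Notch4, Hes1, Hey1, Hey2 and Heyl, Ex3aERKO for Notch3, Jag1 and Jag2, and control for Notch1 and Notch2. Between groups next to each other in these orders, the difference passed the test for Hey2 between Ex3abERKO and Ex3bERKO, and not for any other neighbours of the 10 genes. The nearest to it was Notch2 between Ex3abERKO and Ex3aERKO (0.52 ± 0.17, limma, adjusted p = 0.08118), where the arrays of the 2 groups did not overlap.

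The promoters of Hey2, Notch1 and Notch2, the 3 genes with the largest differences in Ex3abERKO against control among those with a promoter entry, are shown because Notch acts on its targets through RBPJ, whose core motif can be looked for in their letters. RefSeq promoter entries (build GRCm38.p6, 250 bases before to 50 after the start of transcription) matched 7 of the 10 genes. Hey2 held the RBPJ core GTGGGAA, searched on both strands, at 2 places, and Notch1, Notch2, Notch3, Notch4, Jag1 and Jag2 held none. With the first transcribed base as 0, the matches ran from -207 to -201, read on the minus strand relative to the gene, and from -4 to 2. Of 32851 promoters of this length, 6.38% held at least 1 match and 0.256% at least 2. The Hey2 promoter is chr10:30842734-30843033 on the minus strand, the Notch1 promoter chr2:26503773-26504072 on the minus strand and the Notch2 promoter chr3:98013288-98013587 on the plus strand. They are printed 5′ to 3′ with the core in capitals where it occurs.
Hey2: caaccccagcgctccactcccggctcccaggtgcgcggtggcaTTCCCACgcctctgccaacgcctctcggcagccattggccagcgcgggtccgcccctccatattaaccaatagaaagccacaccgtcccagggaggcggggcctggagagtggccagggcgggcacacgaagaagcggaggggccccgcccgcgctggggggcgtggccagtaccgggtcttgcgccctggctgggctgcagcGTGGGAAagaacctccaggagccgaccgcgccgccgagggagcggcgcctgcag
Notch1: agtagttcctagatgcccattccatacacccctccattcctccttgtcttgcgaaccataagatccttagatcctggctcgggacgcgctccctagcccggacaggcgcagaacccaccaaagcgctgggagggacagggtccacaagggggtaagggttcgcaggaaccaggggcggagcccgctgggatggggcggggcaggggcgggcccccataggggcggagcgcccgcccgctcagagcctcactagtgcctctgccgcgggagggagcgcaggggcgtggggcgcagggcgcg
Notch2: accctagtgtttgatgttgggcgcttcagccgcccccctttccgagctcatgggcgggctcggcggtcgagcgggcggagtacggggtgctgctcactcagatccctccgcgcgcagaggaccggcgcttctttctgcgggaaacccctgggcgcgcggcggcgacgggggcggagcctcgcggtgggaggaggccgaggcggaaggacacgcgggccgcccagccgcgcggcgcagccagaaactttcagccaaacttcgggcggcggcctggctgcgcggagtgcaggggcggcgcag

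The same 7 promoters were searched on both strands for the estrogen response half-site AGGTCA and for the E-box CACGTG. None of the 7 held either of them, where 16.3% and 7.15% of all promoters did. A match is a description of the letters and not a binding site, and no match says only that the letters are not in this window. The 7 promoters ranged in GC content between 55.7% for Jag1 and 86% for Jag2, beside a median of 52.7% over all promoters.

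The double knockout was then set against each single knockout. Against Ex3aERKO, 1 of the 10 genes was called, where 7.73% of all features were, 4.41% higher and 3.32% lower. Hey2 was lower in Ex3abERKO by -2.21 ± 0.32, which is 4.62-fold (limma, adjusted p = 0.001414), with -0.998, -2.09 and -3.53 within slides 1, 2 and 4. The Hey2 call held under all 30 alternatives. Notch1 was 0.76 ± 0.28 higher without passing the test (adjusted p = 0.1208) and was called without Ex3abERKO 3 (0.97, adjusted p = 0.0387) and with array weights (0.83, 0.04493). For Heyl the difference was -0.26, with a 95% interval from -1.01 to 0.50, and its value within slides was -0.01, 0.79 and -2.13. The other 7 genes differed by between -0.36 (Notch4) and 0.66 (Jag1), and none of them was called.

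Against Ex3bERKO, 4 of the 10 genes were called in Ex3abERKO, where 16.6% of all features were, 8.23% higher and 8.41% lower. Hey2 fell by 1.84 ± 0.32 (limma, adjusted p = 0.001884) and Heyl fell by 1.18 ± 0.35 (adjusted p = 0.03373). Notch1 was higher by 1.06 ± 0.28 (adjusted p = 0.01946) and Notch2 by 0.72 ± 0.17 (adjusted p = 0.01174). Slides 1 and 4 held both groups, and Notch1 differed there by 0.01 and 1.79, Notch2 by 0.87 and 0.56, Hey2 by -0.79 and -2.51 and Heyl by -0.79 and -1.92. With the slide as a fixed block, Notch1 (0.89, adjusted p = 0.1104), Notch2 (0.67, 0.05603) and Heyl (-1.17, 0.122) lost the call and Hey2 kept it. The Notch1 call was also lost without Ex3bERKO 3 (0.05829), Ex3bERKO 4 (0.0655), Ex3abERKO 2 (0.05818) or Ex3abERKO 4 (0.05863). That of Heyl was lost without Ex3bERKO 1 (0.05857), Ex3bERKO 3 (0.06758), Ex3bERKO 4 (0.1114), Ex3abERKO 2 (0.06144) or Ex3abERKO 4 (0.09702). Without Ex3aERKO 2, Ex3abERKO 2 and control 4 together, Notch1 (0.95, 0.06854) and Heyl (-1.21, 0.09266) lost it too. Only the groups compared also ended the calls of Notch1 (0.05329) and Heyl (0.05711), normexp that of Notch1 (0.07372), median scaling that of Heyl (0.05276) and the mean of all Notch2 probes that of Notch2 (0.37, 0.1484). Hey1, at -0.77 ± 0.29 (adjusted p = 0.08802), was called without Ex3abERKO 3 (-0.99, 0.02539) and with array weights (-0.85, 0.02548). The other 5 genes differed by between -0.52 (Jag2) and 0.385 (Notch3), and none of them was called.

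Between the single knockouts, 1 of the 10 genes was called, where 2.35% of all features were, 0.648% higher and 1.7% lower. Jag2 was lower in Ex3aERKO than in Ex3bERKO by -1.05 ± 0.25, which is 2.07-fold (limma, adjusted p = 0.03884), with -0.84, -1.31 and -1.16 within slides 1, 3 and 4. This call was lost in 15 of 30 alternatives at differences of -1.14 to -0.83, among them the omission of any 1 of the 4 control arrays, of any 1 of the 4 Ex3aERKO arrays, or of Ex3bERKO 3, Ex3bERKO 4 or Ex3abERKO 4, and the highest adjusted p over all alternatives was 0.2265. Without Ex3aERKO 2, Ex3abERKO 2 and control 4 together it was 0.1165, at -1.01. Jag1 was -0.94 ± 0.31 in the same contrast (adjusted p = 0.1531), with no overlap between the groups. Heyl, at -0.92 ± 0.35 (adjusted p = 0.2438), was called with array weights (-1.18, adjusted p = 0.02988) and when Ex3aERKO 4 was left out (-1.29, 0.02887). The other 7 genes differed by between -0.54 (Hey1) and 0.37 (Hey2), and none of them was called.

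An interaction contrast tested whether the change with ERβ loss differed with ERα lost and with ERα present. It was taken as Ex3abERKO minus Ex3aERKO, less Ex3bERKO minus control. By limma 0 of the 10 genes were called, where 3.57% of all features were, 1.83% above 0 and 1.74% below, and Notch3, Hey2 and Jag2 had an unadjusted p under 0.05. The Hey2 interaction was -1.68 ± 0.45 (adjusted p = 0.05542) and that of Notch3 was 1.54 ± 0.42 (adjusted p = 0.05724). These are close to the threshold and moved across it with the setting. Hey2 was called without control 2 (-1.82, adjusted p = 0.04722), Ex3aERKO 2 (-1.93, 0.02544), Ex3bERKO 2 (-1.88, 0.03895) or Ex3abERKO 3 (-1.83, 0.0351). Notch3 was called without control 2 (1.74, adjusted p = 0.03268), Ex3bERKO 4 (1.81, 0.01928) or Ex3abERKO 3 (1.64, 0.04494). Within the slides that held all 4 groups, the Hey2 interaction was 0.20 on slide 1 and -3.48 on slide 4, so the slides did not share a value. The Notch3 interaction was 1.66 on slide 1 and 1.13 on slide 4. The interaction of the other 8 genes lay between -0.24 (Hey1) and 0.80 (Jag2).

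In each knockout group 1 array stood at the end of the range for Hey1, Hey2, Heyl and Notch1 together. Ex3abERKO 4 had the lowest Hey1, Hey2 and Heyl levels and the highest Notch1 level of its group. Ex3aERKO 4 and Ex3bERKO 4 each had the highest Hey1, Hey2 and Heyl levels and the lowest Notch1 level of theirs. The replicate numbers are not known to pair samples across groups. In control the pattern was absent, and control 3 had the lowest level of Notch1, Hey1 and Hey2 alike. Granulosa cell markers moved with the same arrays: their summed linear level was the lowest of its group on Ex3abERKO 4 (60.65) and the highest of its group on Ex3aERKO 4 (354.8) and Ex3bERKO 4 (200.1). Macrophage and lymphocyte markers moved with them too, in the direction of Notch1. The macrophage sum was the highest of its group on Ex3abERKO 4 (361) and the lowest on Ex3aERKO 4 (244.1) and Ex3bERKO 4 (185.3). The lymphocyte sum was likewise the highest on Ex3abERKO 4 (21.47) and the lowest on Ex3aERKO 4 (3.731) and Ex3bERKO 4 (2.73). Other lists moved in part. Sertoli cell, surface epithelium and oviduct, and liver sums were lowest on Ex3aERKO 4 (37.98, 27.03 and 12.3) and Ex3bERKO 4 (3.384, 16.94 and 3.38). They were not the highest on Ex3abERKO 4 (36.9, 42.38 and 19.78). The oocyte sum was the lowest on Ex3aERKO 4 (1.131) and the highest on Ex3bERKO 4 (54.49). The part of these cells in the values of the 4 genes was not tested.

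**Figure D3:**
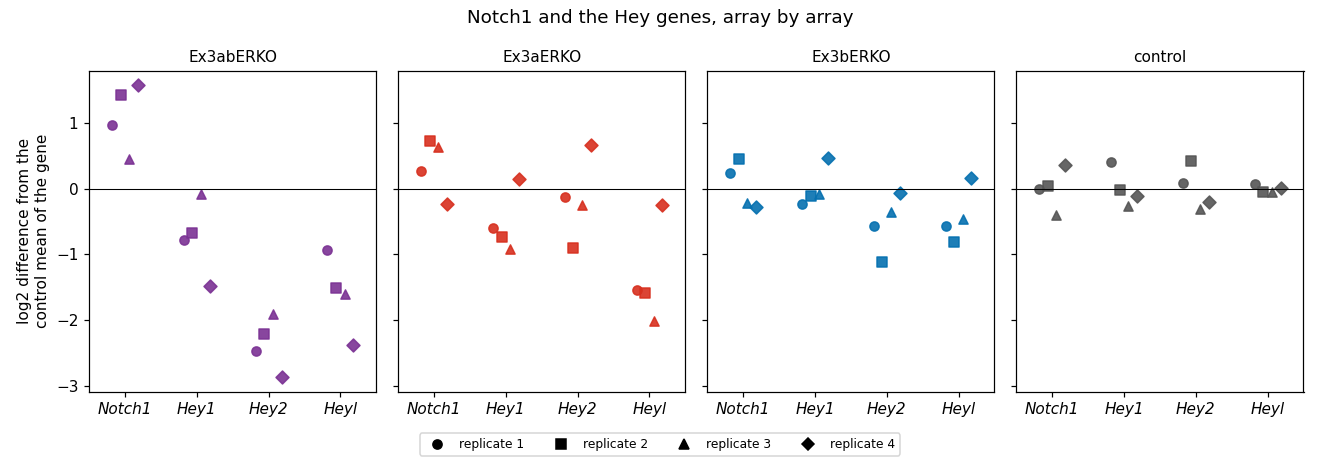
Notch1, Hey1, Hey2 and Heyl on every array as the log2 difference from the control mean of the same gene (y axis), 1 panel per group, with 1 symbol per replicate number. In the Ex3abERKO panel Notch1 lies between 0.46 and 1.57 and Hey2 between -2.87 and -1.91. In the Ex3aERKO panel Heyl lies between -2.01 and -0.25.

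For each of the 10 genes, the 3 genes with the most similar level over the 16 arrays were found by Pearson correlation, as a description of arrays that share groups and slides. Notch1 was most like Nfatc1 (r = 0.970), a transcription factor controlled by calcineurin, followed by Prr13 and Efhd2. Hey2 was most like Mpped2 (r = 0.955), Camk2g, a calcium-dependent kinase subunit, and Srcin1. Heyl was most like Eif2b2 (r = 0.958), a translation initiation factor subunit, 3010003L21Rik and Cct7. For Jag2 the leading genes were Shank3 (r = 0.902), Rasip1 and Thsd1, of which Rasip1 is an endothelial protein. For Notch3 they were Mmp13 (r = 0.902), a collagenase, Parm1 and Adcy4. For Notch2 they were Plekha6 (r = 0.944), Cys1 and Frmd4b, and for Notch4 Sgsm2 (r = 0.953), Trmu and Plppr2. The leading values were lower for Jag1 (Dio3, r = 0.888), Hey1 (Babam1, r = 0.900) and Hes1 (Gdf3, r = 0.811).

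The wider pathway was read from a list of 48 further genes by role, all of which were well above background on every array. In Ex3abERKO against control, 9 of the 48 were called, 3 higher and 6 lower, where 22.3% of all features were called. In Ex3aERKO 4 were called, 1 higher and 3 lower, where 8.05% of all features were. Both counts are near the share over all features. In Ex3bERKO 0 were called by limma, where 1.03% of all features were, and 4 had an unadjusted p under 0.05. The median difference over the 48 was -0.0044, -0.14 and -0.07 in these comparisons. Among receptor-cleavage genes 1 of 8 was called, among the nuclear complex and corepressors 1 of 9, and among inhibitors and turnover genes 1 of 7, all in Ex3abERKO. Leaving out Ex3aERKO 2, Ex3abERKO 2 and control 4 together reduced the count to 4 in Ex3abERKO and 2 in Ex3aERKO, leaving out control 1 alone reduced the Ex3abERKO count to 3 and leaving out control 3 to 5.

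Dtx1 encodes Deltex, a ubiquitin ligase that binds Notch and is itself a Notch target, and it rose where Heyl fell. It ranged between 0.75 and 1.54 in Ex3abERKO, -0.35 and 0.27 in Ex3aERKO ovaries, -1.02 and -0.39 in Ex3bERKO ovaries, and -1.49 and -0.99 in control. Neither Ex3abERKO nor Ex3aERKO overlapped any other group, and the Ex3bERKO and control ranges overlapped. Dtx1 rose by 2.25 ± 0.20 in Ex3abERKO (limma, adjusted p = 1.833e-05) and by 1.16 ± 0.20 in Ex3aERKO (adjusted p = 0.00326). Ex3abERKO was also 1.08 ± 0.20 above Ex3aERKO (adjusted p = 0.006303) and 1.75 ± 0.20 above Ex3bERKO (adjusted p = 0.0001955). Without the 3 arrays named above, the Ex3aERKO difference from control was 0.96 and not called (adjusted p = 0.05909). With only the groups compared in the model, Ex3abERKO against Ex3aERKO was not called (adjusted p = 0.05182).

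Of 9 other listed targets, 1 rose and 3 fell in Ex3abERKO, where 22.3% of all features were called. In Ex3aERKO 1 rose and 2 fell, where 8.05% of all features were called. Nrarp and Myc fell in both, as did Dll4, the Delta ligand of endothelium. Dll4 fell by 1.03 ± 0.16 in Ex3aERKO (limma, adjusted p = 0.001665) and by 0.59 ± 0.16 in Ex3abERKO (adjusted p = 0.01595), and its interaction was 0.89 ± 0.23 (adjusted p = 0.04496). Nrarp, a feedback inhibitor induced by Notch, fell by 1.26 ± 0.26 in Ex3aERKO (adjusted p = 0.00859) and by 0.93 ± 0.26 in Ex3abERKO (adjusted p = 0.02018). Myc, a growth regulator that Notch can induce, fell by 1.31 ± 0.19 in Ex3aERKO (adjusted p = 0.000789) and by 0.80 ± 0.19 in Ex3abERKO (adjusted p = 0.006873), and it was -1.06 ± 0.19 in Ex3aERKO against Ex3bERKO (adjusted p = 0.005781). Dll4 and Nrarp lost the Ex3abERKO call without control 1 (adjusted p = 0.05643 for Dll4 and 0.06234 for Nrarp). With Ex3aERKO 2, Ex3abERKO 2 and control 4 left out, Dll4, Nrarp and Myc lost it in Ex3abERKO (adjusted p = 0.08907, 0.1112 and 0.05842 in that order), and Nrarp in Ex3aERKO (0.09288). The Dll4 interaction was lost without any 1 of 13 of the 16 arrays, all but control 2, Ex3aERKO 4 and Ex3abERKO 3, with adjusted p-values up to 0.101, and with the slide as a fixed block (0.09476), normexp (0.1836), a trended, robust prior (0.07903) or the 3 arrays left out (0.2026). Normexp also ended the Ex3abERKO calls of Dll4 (0.07049) and Nrarp (0.1105) and the Ex3aERKO call of Nrarp (0.06956), and only the groups compared that of Dll4 in Ex3abERKO (0.05984). The Myc call in Ex3aERKO against Ex3bERKO was likewise lost with only the groups compared (0.08489).

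The other 5 genes called in Ex3abERKO against control had adjusted p-values between 0.01517 and 0.03998. Hes2, a Hes family repressor, fell by 0.85 ± 0.28 against control (limma, adjusted p = 0.03911), Dtx3, of the Deltex family, fell by 0.82 ± 0.24 (adjusted p = 0.02406), and Hdac1, a histone deacetylase of corepressor complexes, fell by 0.36 ± 0.11 (adjusted p = 0.0314). Mfng, a Fringe enzyme that adds sugars to Notch, rose by 0.79 ± 0.26 (adjusted p = 0.03998), and by 1.24 ± 0.26 against Ex3aERKO (adjusted p = 0.01036). Aph1b, a subunit of the receptor-cutting γ-secretase, rose by 0.68 ± 0.18 (adjusted p = 0.01517), and its probe may not be told apart from the near-identical copy Aph1c. The calls of Hes2, Dtx3, Hdac1 and Mfng against control were each lost when single arrays were left out. Control 1 and control 3 were such arrays for all 4 genes, and the highest adjusted p-values were 0.1184 for Hes2, 0.07712 for Dtx3, 0.08844 for Hdac1 and 0.1039 for Mfng. The other arrays were control 2 for Hes2, Hdac1 and Mfng, control 4 and Ex3abERKO 2 for Hdac1, Ex3abERKO 3 for Hes2 and Dtx3, Ex3abERKO 4 for Hes2, Hdac1 and Mfng, and Ex3abERKO 1, Ex3abERKO 2, Ex3aERKO 1 and Ex3bERKO 3 for Mfng. With the slide as a fixed block, Hes2 (adjusted p = 0.06798), Hdac1 (0.05588) and Mfng (0.08456) lost the call. Hdac1 (0.1639) and Mfng (0.082) also lost it without Ex3aERKO 2, Ex3abERKO 2 and control 4 together. All 5 genes lost it with only the groups compared, with adjusted p-values of 0.06314 for Dtx3 to 0.1352 for Hdac1. Normexp ended the calls of Hes2, Hdac1 and Mfng (0.05326 for Mfng to 0.2219 for Hdac1), median scaling that of Hdac1 (0.1574), and the mean of all Hes2 probes that of Hes2 (-0.36, 0.1804).

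Between knockouts, 3 of the 48 genes were higher in Ex3abERKO than in Ex3aERKO, where 7.73% of all features were called. By limma 0 were lower there (2 at an unadjusted p under 0.05). Against Ex3bERKO, 6 were higher and 1 lower in Ex3abERKO, where 16.6% of all features were called. Both counts are near the share over all features. Besides Dtx1 and Mfng, Neurl1a, a ubiquitin ligase that acts on Notch ligands, was 1.43 ± 0.35 higher in Ex3abERKO than in Ex3aERKO (limma, adjusted p = 0.02373) and 1.18 ± 0.35 higher than in Ex3bERKO (adjusted p = 0.03326). Dlk1, a ligand-like inhibitor of Notch, was 2.55 ± 0.71 above Ex3bERKO (adjusted p = 0.02382), but ranged between -1.83 and 2.28 in Ex3abERKO and between -3.60 and -2.48 in Ex3bERKO. Without Ex3abERKO 2, its highest array, the Dlk1 difference was 1.62 and called (adjusted p = 0.02475), and the call was lost with normexp (0.05629), with the slide as a fixed block (0.1364), with only the groups compared (0.08583) and without Ex3bERKO 3 (0.06601). Furin, the protease that processes Notch precursors, was 0.64 ± 0.18 above Ex3bERKO (adjusted p = 0.02283). Mfng (0.86 ± 0.26, adjusted p = 0.03391), Aph1b (0.56 ± 0.18, 0.04725) and Dtx3 (-0.76 ± 0.24, 0.04304) were also called against Ex3bERKO. Of 30 alternatives, the call against Ex3bERKO held in 10 for Aph1b (limma, adjusted p up to 0.1732) and 16 for Dtx3 (up to 0.1333). It held in 20 for Mfng (up to 0.1579), 19 for Neurl1a (up to 0.1535) and 22 for Furin (up to 0.1368). When single arrays were left out, the count in this contrast went as low as 2 (without Ex3bERKO 3, Ex3abERKO 1 or Ex3abERKO 4), 3 (without Ex3bERKO 1 or Ex3bERKO 4) and 4 (without Ex3abERKO 2). With the slide as a fixed block it was 2, as Mfng, Neurl1a, Dlk1, Furin and Dtx3 lost the call. The count was 1 with only the groups compared and 3 with normexp. It was 3 without Ex3aERKO 2, Ex3abERKO 2 and control 4 together, as Aph1b (0.0553), Mfng (0.07725), Neurl1a (0.08069) and Furin (0.0991) lost the call. Against Ex3aERKO, Neurl1a lost the call without Ex3aERKO 1, Ex3aERKO 4, Ex3abERKO 1 or Ex3abERKO 2, with only the groups compared and with the mean of all its probes, with adjusted p-values up to 0.132. Dtx1 (0.05182) and Mfng (0.08317) also lost theirs there with only the groups compared, so that 0 of the 48 were called.

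**Figure D4:**
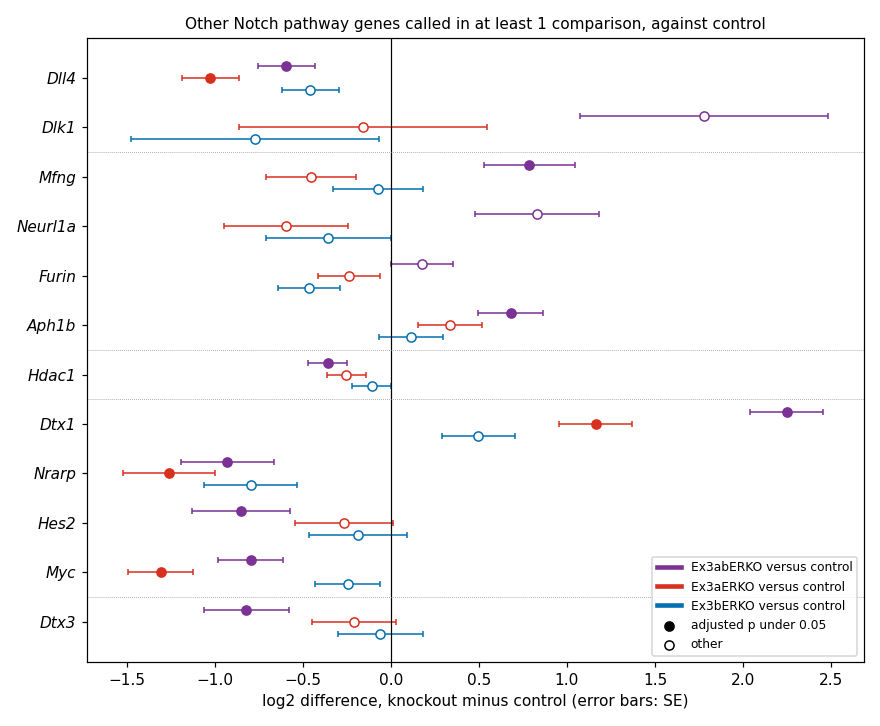
Log2 difference from control (x axis) with standard errors for the 12 listed pathway genes called in at least 1 contrast, in the same colours as the plot of the 10 genes; filled points have an adjusted p under 0.05. Genes are ordered by role from ligands at the top to the turnover gene Dtx3. Dtx1 lies at 2.25 in Ex3abERKO and 1.16 in Ex3aERKO, and Dll4, Nrarp and Myc lie below 0 in both.

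Markers of cell types were read in the same comparisons, where 22.3% of all features were called in Ex3abERKO, 8.05% in Ex3aERKO and 1.03% in Ex3bERKO. In whole ovary, fewer cells of a type and less RNA per cell cannot be told apart. Of 12 endothelial markers, 6 fell in Ex3abERKO, 8 in Ex3aERKO and 0 in Ex3bERKO by limma (3 there at an unadjusted p under 0.05), with median differences of -0.54, -0.94 and -0.31. Their summed linear level was 30.0 to 36.4 in Ex3abERKO, 23.2 to 27.7 in Ex3aERKO ovaries, 31.6 to 45.3 in Ex3bERKO ovaries and 39.5 to 55.7 in control, and all 12 were well above background on every array. Without Ex3aERKO 2, Ex3abERKO 2 and control 4, 2 of the 12 fell in Ex3abERKO and 2 in Ex3aERKO. Notch4, Dll4, Hey1 and Hey2 are endothelial genes in part, and the part of endothelium in their differences was not tested. Of 10 markers of smooth muscle and pericytes, 2 fell in Ex3abERKO, 2 in Ex3aERKO and 0 in Ex3bERKO by limma (2 there at an unadjusted p under 0.05), a share in Ex3abERKO near that of all features. Without the 3 arrays 1 fell in each of Ex3abERKO and Ex3aERKO. Their summed level overlapped between all groups (49.5 to 161 in Ex3abERKO, 41.3 to 93.4 in Ex3aERKO ovaries, 32.8 to 82.9 in Ex3bERKO ovaries and 56.1 to 86.6 in control). Their part in the values of Notch3 and Heyl was not tested.

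Follicle and immune markers also moved. Of 10 granulosa cell markers, 1 rose and 5 fell in Ex3abERKO and 2 rose and 1 fell in Ex3aERKO, with a summed level of 60.7 to 117 in Ex3abERKO ovaries, 164 to 355 in Ex3aERKO ovaries, 127 to 200 in Ex3bERKO ovaries and 134 to 227 in control. Of 9 Sertoli cell markers, 8 rose and 1 fell in Ex3abERKO, 5 rose in Ex3aERKO and 2 rose in Ex3bERKO, and the summed level was 18.3 to 52.6, 38.0 to 61.1 and 3.38 to 32.3 in these groups, against 2.01 to 2.42 in control. A linear sum weighs the brightest genes most. The mean log2 level of the 9 was -0.6005 to 0.651 in Ex3abERKO and -1.467 to -0.595 in Ex3aERKO. Between these 2 groups, 5 of the 9 were higher and 1 lower in Ex3abERKO, where 7.73% of all features were called. Dmrt1 was not well above background on any Ex3aERKO, Ex3bERKO or control array. Of 8 oocyte markers, 5 fell in Ex3abERKO and 6 in Ex3aERKO, with sums of 4.57 to 8.20 and 1.13 to 6.91 against 14.4 to 32.2 in control. Of 9 macrophage markers 8 rose in Ex3abERKO and 2 in Ex3aERKO, with sums of 334 to 361 and 244 to 301 against 159 to 217 in control. Of 7 lymphocyte markers 5 rose in Ex3abERKO and 0 in Ex3aERKO by limma (1 there at an unadjusted p under 0.05), with sums of 9.77 to 21.5 and 3.73 to 6.72 against 2.54 to 4.92 in control. Of 8 luteal and theca cell markers, 1 rose and 4 fell in Ex3abERKO, 2 rose and 2 fell in Ex3aERKO, and 1 rose and 1 fell in Ex3bERKO. Without Ex3aERKO 2, Ex3abERKO 2 and control 4, an alternative applied to these lists after seeing the data, the counts in Ex3abERKO were 5 lower of the granulosa cell markers, 7 higher of the Sertoli cell markers, 3 lower of the oocyte markers, 6 higher of the macrophage markers, 4 higher of the lymphocyte markers and 4 lower of the luteal and theca cell markers. In Ex3aERKO they were then 0 of the granulosa cell markers by limma (5 at an unadjusted p under 0.05), 3 higher of the Sertoli cell markers, 3 lower of the oocyte markers, 0 of the macrophage markers (4 at an unadjusted p under 0.05), and 2 higher and 1 lower of the luteal and theca cell markers. In Ex3bERKO 0 Sertoli cell markers (4 at an unadjusted p under 0.05) and 1 luteal and theca cell marker were then called by limma, and 1 of 9 surface epithelium and oviduct markers rose in Ex3abERKO, against 4 with these arrays. In Ex3aERKO 0 of those 9 were then called by limma (6 at an unadjusted p under 0.05), against 3 higher with these arrays. Of 6 liver markers, 0 were then called there (2 at an unadjusted p under 0.05), against 2 higher. In Ex3abERKO 2 liver markers were then higher and 1 lower, against 2 higher. Of 5 erythroid markers, 2 were then higher in Ex3abERKO, against 0 called by limma with these arrays. The part of these cells in the values of the 10 genes, Hey2 and Heyl included, was not tested.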

How the data were processed

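The deposited intensity values came from Agilent Feature Extraction, version 9.5 by the submitters' processing notes. Per the file headers, it removed background and a surface trend array by array, and a spot below background received a small stand-in value. The authors' deposited series table held the same intensity values as the scanner files for each of the 41174 probes, within a relative tolerance of 0.0001.

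Here each processed signal was divided by the array's 75th percentile over 43379 non-control spots and floored at -8.88 on the log2 scale. Repeat spots were averaged without outlier spots (54 to 106 per array) but with saturated ones (0 to 7). The 36227 probes well above background on 4 or more of the 16 arrays were kept. The kept probe with the highest mean represented its gene. Probes were named through accessions in a RefSeq gene table of GRCm38.p6 (22951), a current (6659) or an older symbol (3109), or not at all (8455). This left 24373 features, 18298 of them with a symbol. Coordinates of probes are those of the array files (mm7), with no genome of that build used here, so exons are not given.

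One limma 3.58.1 model (R 4.3.3; lmFit, eBayes) was fitted to the 4 group means on 16 arrays, without covariates and with 12 residual degrees of freedom, for 6 pairwise contrasts and an interaction. P-values were two-sided with Benjamini-Hochberg adjustment over all 24373 features, and calls were made below 0.05. A ± gives the model's standard error unless SD is named. On data simulated from these arrays with 200 changed features, a change of 1 on the log2 scale was recovered for 40% of features in Ex3abERKO against control and for 8% in the interaction, and a change of 2 for 79% and 54%. The simulation held far fewer changed features than the 5441 called in Ex3abERKO against control. The adjustment depends on that number, so these shares may not carry over to the data.

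All 10 genes were tested in every comparison, with those that were not called between knockouts given as a range, listed pathway genes were named where called in any contrast, and marker lists were read whole. The members and lists were chosen with earlier results of these data known. The number of arrays limits the precision.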

Additional observations from a re-analysis of the deposited data

Results flagged for a closer look

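Over the 10 genes, 40 groups of 4 arrays were checked for an array that lay apart from the other 3 by Dixon's gap test, and 2 were found, where chance flags about 1 in 20 groups. Notch4 was -0.23 on Ex3aERKO 4, above the other 3 arrays of that group, which lay between -0.67 and -0.60. Jag1 was 0.82 on control 4, above the other 3 control arrays, which lay between 0.44 and 0.47.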

How the results depend on the processing

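Over the alternatives run (30 per pairwise contrast), no difference called under the main or the alternative setting changed sign. Hey2 kept its call in Ex3abERKO against each other group, Heyl its call in Ex3abERKO against control, and Jag2 its call in Ex3aERKO against control. Of the 10 genes, array weights called 5 in Ex3aERKO against control, 2 in Ex3abERKO against Ex3aERKO, 2 in Ex3aERKO against Ex3bERKO and 2 in the interaction. The interaction also had 2 with the filter on all 16 arrays and 2 with a trended, robust prior. In Ex3abERKO against Ex3bERKO, 1 was called with the slide as a fixed block, 2 with only the groups compared and 2 without Ex3aERKO 2, Ex3abERKO 2 and control 4. In Ex3aERKO against control, 1 was called without those 3 arrays. In Ex3aERKO against Ex3bERKO, 0 were called with normexp, with only the groups compared, without those 3 arrays or with the replicate block. Leaving out 1 array at a time gave 4 to 6 in Ex3abERKO, 1 to 4 in Ex3aERKO and 0 to 1 in Ex3bERKO against control, 1 to 2 in Ex3abERKO against Ex3aERKO, 2 to 5 against Ex3bERKO, 0 to 1 between the single knockouts and 0 to 2 in the interaction. The cause of these changes was not tested.

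Counts over all features (1961 in Ex3aERKO, 250 in Ex3bERKO and 5441 in Ex3abERKO against control, 1884 in Ex3abERKO against Ex3aERKO and 4054 against Ex3bERKO, 572 between the single knockouts and 870 in the interaction) became 951, 155, 3118, 743, 1927, 235 and 339 with normexp, in that order, and 557, 63, 3217, 841, 2438, 233 and 251 without the 3 arrays, where fewer samples enter. Array weights gave 5178, 799, 8537, 6107, 1516 and 1751, leaving out Ex3abERKO against Ex3aERKO, which stayed within 1.5 times. With only the groups compared the counts were 85 in Ex3bERKO against control, 609 and 2453 in Ex3abERKO against Ex3aERKO and Ex3bERKO, and 120 between the single knockouts, and with the slide as a fixed block 2143 in Ex3abERKO against Ex3bERKO. Single arrays left out gave 1139 to 2626, 111 to 367, 3867 to 6300, 1101 to 2258, 2375 to 5025, 284 to 878 and 506 to 1326. Normexp moved the median of all features against control to -0.36 in Ex3abERKO, -0.34 in Ex3aERKO and -0.27 in Ex3bERKO, and the share of higher calls to 27.7% in Ex3bERKO (38% in the main setting) and to 61.7% in the interaction (51.1%).

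The replicate block changed 1 call of the 10 genes besides that of Jag2 in Ex3aERKO against Ex3bERKO (adjusted p = 0.06759), namely Heyl in Ex3abERKO against Ex3bERKO (0.05219). Same-numbered arrays of different groups did not deviate together (median correlation -0.0681 over 24 pairs, -0.0273 over 72 others), and 4 of 16 arrays correlated best with their own number. Arrays on the same slide had a median correlation of 0.28 over 22 pairs, beside -0.07 over 74 others. Signal over background did not limit these genes, whose representing probes were well above background on all 16 arrays. The count of the 48 other pathway genes was put through the same alternatives after seeing the data, and in Ex3abERKO against control it was 4 with normexp, 3 with only the groups compared, 14 with array weights and 4 without the 3 arrays, beside 9.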
